A study of Rattus norvegicus with 8 samples.

Results

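The genes of cholesterol synthesis, uptake and export were examined in hypothalamic RNA of female Sprague-Dawley rats aged 21 days, profiled on Affymetrix Rat Gene 1.0 arrays. The list was set by gene symbol and held 35 genes, of which 33 had a uniquely named probe set among the 14506 genes measured. Hmgcs1 and Srebf1 were not analysed here, the first because no probe set names it alone and the second because its probe set is also annotated to Pemt. Each gene is represented by its brightest probe set, and levels are log2 intensities, so they are compared between arrays and not between genes. All 33 genes were tested, since dim probe sets were not filtered out.

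The 8 arrays form 4 groups of 2, with replicates A and B. CR-l and CR-s were female offspring of mothers restricted by 50% of calories over gestation days 11 to 21 and after birth, given leptin or saline on postnatal days 2 to 8. Con-l and Con-s were offspring of normally fed mothers given leptin or saline on the same days. The labels leave unclear whether pups or mothers were treated, and 1 note spells Con-l as Con-r. The labels do not say whether a sample holds 1 animal or a pool, or whether replicates came from separate litters. The p-values therefore rest on the spread between the 2 samples within each group, which may be technical. Of 11 hypothalamic peptide genes with a probe set, Pmch had log2 levels of 11.09 to 11.53, Hcrt 9.21 to 9.75 and Avp 9.72 to 10.16, while Pomc had 6.21 to 6.58 and Ghrh 5.86 to 6.18, and no detection call was used. In the averaged diet comparison of CR with Con, 3 of the 11 passed: Oxt fell, and Agrp and Npy rose. Median intensity was 111.8 to 114.1 and correlations between arrays were 0.994 to 0.996. CR-s replicate B had the narrowest spread of values, an interquartile range of 2.92 on the log2 scale against 3.01 to 3.08 on the other arrays.

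Cholesterol is built from acetyl-CoA through mevalonate and farnesyl diphosphate to squalene, and squalene is then closed into a ring and trimmed in a series of late steps. Transcription of most of these enzymes is driven by the factor SREBP-2, product of Srebf2, which the escort protein Scap carries to the Golgi when membrane sterol is low and which the Insig proteins hold back when it is high. Cholesterol in lipoproteins barely crosses the blood-brain barrier, so the brain makes its own. Myelinating oligodendrocytes are heavy users during the weeks after birth, and astrocytes export cholesterol on apolipoprotein E. Surplus leaves neurons as an oxidised sterol made by Cyp46a1, while the liver X receptors, Nr1h2 and Nr1h3, turn on the exporters Abca1 and Abcg1.

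Mean transcript levels were lower in restricted offspring for 18 of 19 measured cholesterol synthesis genes, and 4 of these passed the test, together with the regulator Srebf2. Averaged over leptin and saline, 30 of the 33 genes were lower and 3 were higher in the 4 CR arrays than in the 4 Con arrays, with a median log2 difference of -0.15 against 0.00 over all genes. In limma's fit across all genes, 5 of the 33 fell at a Benjamini-Hochberg adjusted p under 0.05 and 0 rose, where 0.882% of all genes fell and 0.324% rose. The 5 were Cyp51, Msmo1, Nsdhl and Dhcr7, which encode late enzymes, and Srebf2. In 18 of the 33 genes every CR array lay below every Con array, against 6.67% of all genes, and in 0 of them did every CR array lie above, against 4.52% of all genes. The map of levels by array shows lower values on the CR arrays over the synthesis rows and values near the Con mean over most export rows.

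**Figure D1:**
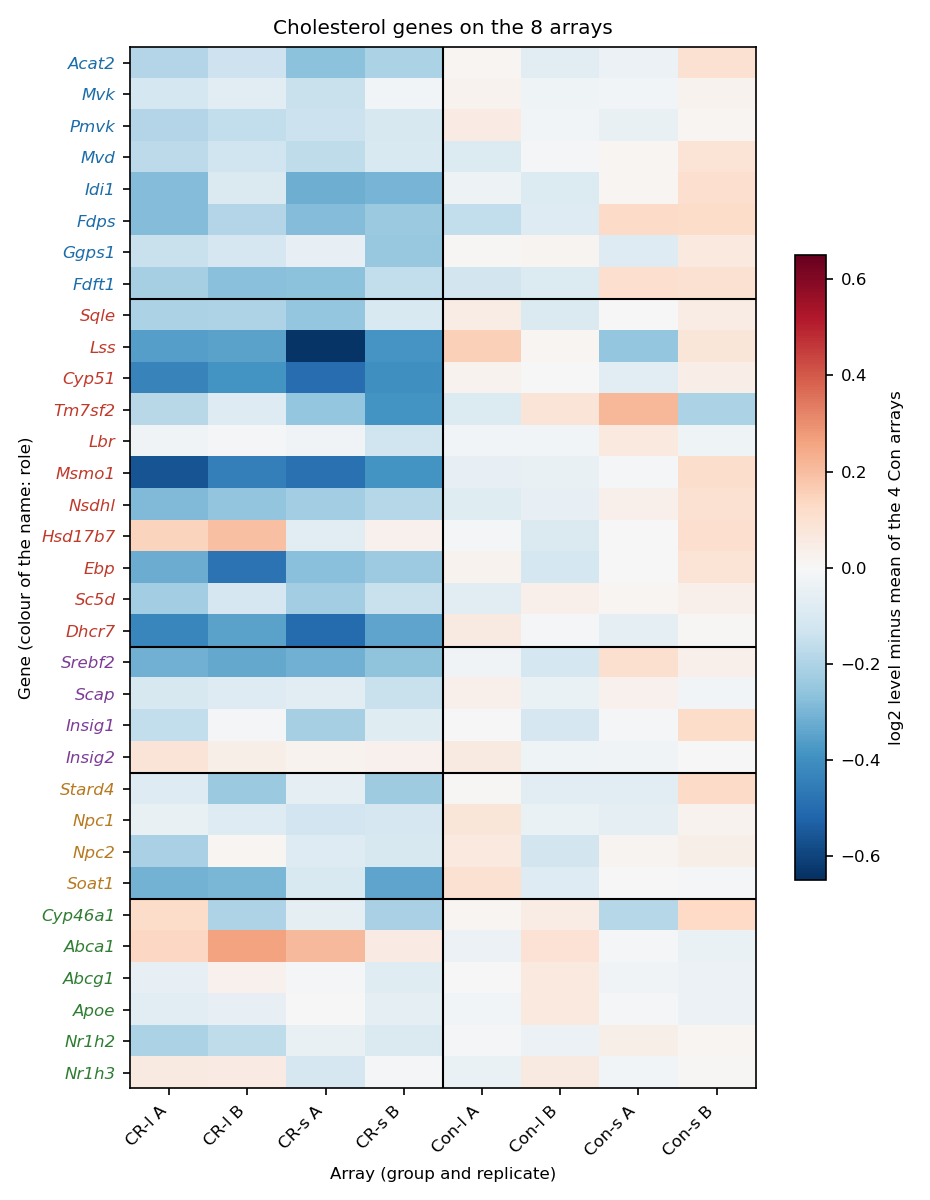
Log2 level of each of the 33 genes (rows, grouped by role) on each of the 8 arrays (columns, CR-l, CR-s, Con-l and Con-s) as the difference from that gene's mean over the 4 Con arrays, coloured from blue (lower) to red (higher). Early and late synthesis genes are lower on the CR arrays, apart from Hsd17b7, while most turnover and export genes lie near the Con mean and Abca1 lies above it.

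The late steps, which turn squalene into cholesterol, held 11 of the 33 genes and 4 of the 5 that fell, where 0.882% of all genes fell. Cyp51, the lanosterol 14-alpha demethylase, had log2 levels of 11.06 and 11.10 in CR-l and 10.997 and 11.09 in CR-s, against 11.51 and 11.50 in Con-l and 11.42 and 11.53 in Con-s. The CR arrays did not overlap the Con arrays, and the averaged difference was -0.43 (SE 0.05), a level 1.35-fold lower (limma, adjusted p = 0.0223). Msmo1, the methylsterol monooxygenase that acts on the 4-methyl groups, had 10.69 and 10.81 in CR-l and 10.77 and 10.86 in CR-s, against 11.20 in both Con-l arrays and 11.24 and 11.37 in Con-s. All 4 CR values again lay below all 4 Con values, and the difference of -0.47 (SE 0.05) lay furthest from 0 of the 33 genes, 1.38-fold lower (limma, adjusted p = 0.0223).

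Nsdhl, which works with Msmo1 to remove those methyl groups, had log2 levels of 9.79 and 9.82 in CR-l and 9.85 and 9.90 in CR-s, against 9.999 and 10.03 in Con-l and 10.11 and 10.18 in Con-s. It was ordered CR-l, CR-s, Con-l, Con-s from low to high with no overlap between any 2 groups, and its averaged diet difference was -0.24 (SE 0.04, limma, adjusted p = 0.0492). Dhcr7, the reductase of the last step on one branch of the pathway, had 8.33 and 8.40 in CR-l and 8.25 and 8.41 in CR-s, against 8.81 and 8.74 in Con-l and 8.69 and 8.76 in Con-s. CR and Con values did not overlap, and Dhcr7 was 1.32-fold lower in restricted offspring (log2 difference -0.40, SE 0.05, limma, adjusted p = 0.0236).

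Of the 11 late genes, 10 were lower in CR and 8 had all CR arrays below all Con arrays, against 6.67% of all genes. The median log2 difference of the late genes was -0.24. Lss, the cyclase that closes the sterol ring, differed by as much as Cyp51 (-0.43) but varied more within groups (SE 0.09) and did not pass (limma, adjusted p = 0.0836). Its CR levels spanned 9.23 to 9.51 and its Con levels 9.61 to 10.02, with the lowest value of each diet on an A replicate of a saline group. Ebp, the sterol isomerase, spanned 8.24 to 8.49 in CR and 8.61 to 8.82 in Con, a difference of -0.33 that lay just outside the threshold (limma, adjusted p = 0.0502). Sqle, the epoxidase that opens the late pathway, differed by -0.19, and Sc5d, the desaturase near its end, by -0.18; both had no overlap between diets and neither passed.

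The late genes with the weakest diet difference by p were Lbr, Hsd17b7 and Tm7sf2. Hsd17b7, the 3-ketosteroid reductase of the demethylation complex in which Msmo1 and Nsdhl also act, had log2 levels of 8.53 and 8.58 in CR-l and 8.31 and 8.41 in CR-s, against 8.37 and 8.29 in Con-l and 8.38 and 8.49 in Con-s. It was the 1 synthesis gene with a higher CR mean, by 0.07 (95% interval -0.04 to 0.19), and the diets overlapped. Lbr and Tm7sf2 both encode sterol C14 reductases, the Lbr protein also anchoring chromatin to the inner nuclear membrane. Lbr levels were 7.01 to 7.13 in CR and 7.11 to 7.21 in Con, a difference of -0.05 (95% interval -0.16 to 0.06). Tm7sf2 differed by -0.23 (95% interval -0.46 to 0.00), with Con-s replicates far apart at 8.27 and 7.84.

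The early steps, which lead to squalene, had smaller differences on the same side of 0. All 8 measured early genes were lower in CR, 6 of them with no overlap between diets, against 6.67% of all genes. The median log2 difference was -0.17, but 0 passed the threshold, where 0.882% of all genes fell. In 2 alternatives, limma's trend and robust settings and the upper 60% of genes by mean level, 4 of the 8 passed, namely Acat2, Idi1, Fdps and Fdft1. Trend and robust settings called 744 of all 14506 genes, against 175 in the main fit. Fdps, which makes farnesyl diphosphate, came closest, with levels of 10.40 to 10.50 in CR and 10.53 to 10.81 in Con, a difference of -0.25 (SE 0.04, limma, adjusted p = 0.0513). Fdft1, the squalene synthase, had 10.99 to 11.10 in CR and 11.14 to 11.37 in Con (-0.23, limma, adjusted p = 0.0663). Idi1, the isomerase ahead of Fdps, had 8.20 to 8.42 in CR and 8.42 to 8.62 in Con (-0.25, limma, adjusted p = 0.0968). In Fdps and Fdft1, both Con-s arrays also stood above both Con-l arrays.

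Acat2, the cytosolic thiolase that starts the route, differed by -0.20 with CR levels of 9.03 to 9.17 and Con levels of 9.23 to 9.40. The kinases Mvk and Pmvk differed by -0.09 and -0.15, and the decarboxylase Mvd by -0.14. Ggps1, which diverts farnesyl diphosphate towards protein prenylation, differed by -0.14. Among these, Acat2, Pmvk and Mvd had no overlap between diets, whereas Mvk and Ggps1 did overlap. Taking early and late genes as 19 synthesis genes, 18 were lower in CR, 14 without overlap and 4 past the threshold. Of all genes, 6.67% were lower without overlap and 0.882% were lower past the threshold.

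**Figure D2:**
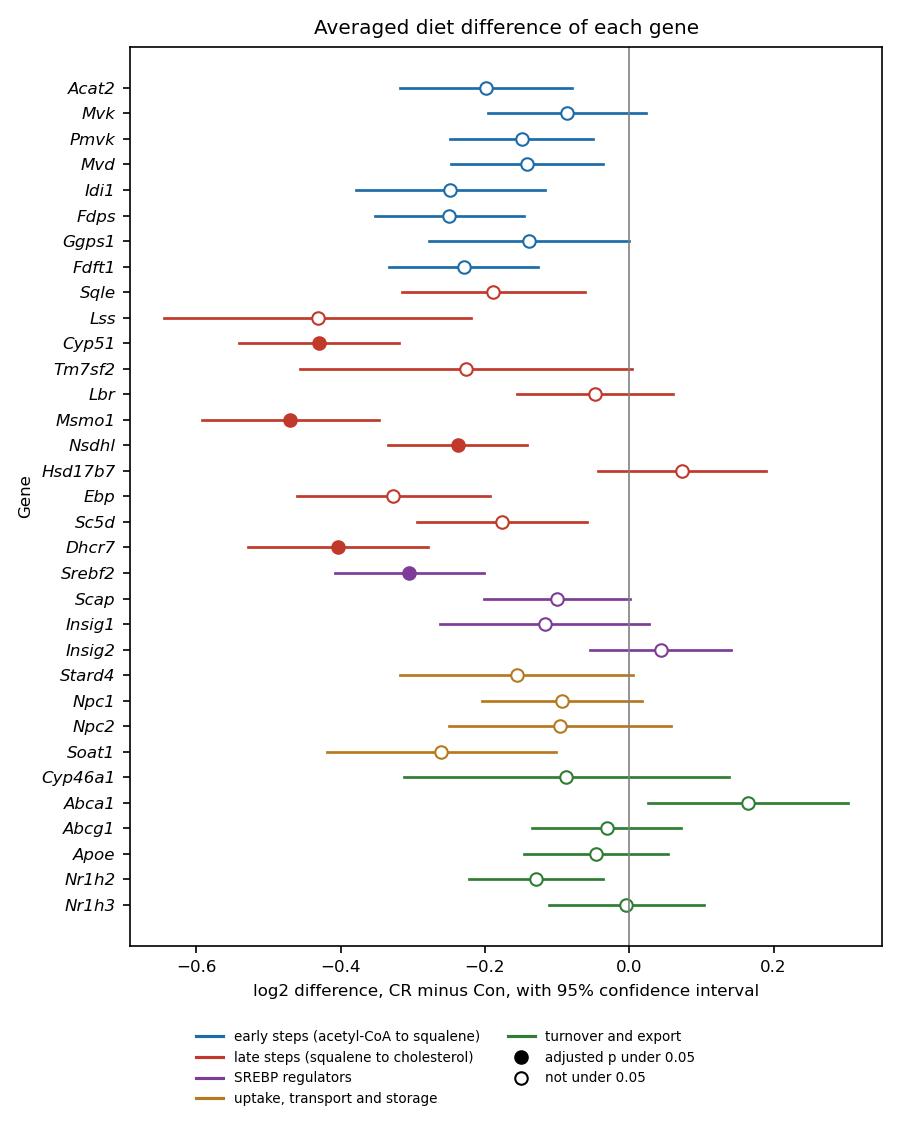
Averaged diet difference of each of the 33 genes (CR minus Con, log2, 4 arrays against 4) with its 95% confidence interval from the limma fit, coloured by role, with filled circles for an adjusted p under 0.05. The filled circles are Cyp51, Msmo1, Nsdhl, Dhcr7 and Srebf2, the late genes reach furthest below 0, and Abca1, Hsd17b7 and Insig2 lie above 0.

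The calls rest on all 8 arrays. With any 1 array left out, 0 of the 33 genes passed, and the smallest adjusted p of any member was 0.0627 without CR-l A, 0.0733 without CR-l B, 0.0673 without CR-s A, 0.0605 without CR-s B, 0.0813 without Con-l A, 0.0681 without Con-l B, 0.0631 without Con-s A and 0.0925 without Con-s B. The number also fell to 0 when all probe sets, named or not, were tested together (smallest adjusted p = 0.0788, limma). The log2 difference of the 5 genes moved by little in the alternatives that could change it. It lay between -0.46 and -0.40 for Cyp51 and between -0.50 and -0.44 for Msmo1.

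Among the regulators of the pathway, Srebf2 was the 1 gene that fell. It had log2 levels of 9.48 and 9.46 in CR-l and 9.48 and 9.53 in CR-s, against 9.77 and 9.68 in Con-l and 9.89 and 9.82 in Con-s. The CR arrays lay close together and below every Con array, and the difference of -0.30 (SE 0.04) amounted to a 1.24-fold lower level (limma, adjusted p = 0.0325). SREBP-2 is itself activated by cleavage of its protein, which these transcript levels do not measure.

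The genes of the escort and of the Insig proteins did not pass. Scap had log2 levels of 9.36 and 9.38 in CR-l and 9.40 and 9.32 in CR-s, against 9.50 and 9.42 in Con-l and 9.49 and 9.45 in Con-s, which is lower in every CR array, by -0.10 on average (95% interval -0.20 to 0.00). Insig1, itself a well-known SREBP target, had 10.21 and 10.36 in CR-l and 10.16 and 10.30 in CR-s, against 10.37 and 10.27 in Con-l and 10.36 and 10.49 in Con-s. The Insig1 groups overlapped, at a difference of -0.12, and its second, dimmer probe set gave -0.11. Insig2, which is not a direct SREBP target, had 8.58 and 8.53 in CR-l and 8.52 and 8.53 in CR-s, against 8.55 and 8.47 in Con-l and 8.47 and 8.49 in Con-s, and its CR mean was higher by 0.04 (95% interval -0.05 to 0.14).

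The promoters of the 5 genes that fell are given because SREBPs act on target promoters together with NF-Y, which binds CCAAT, and Sp1, which binds GGGCGG. They are the 250 bases before each start site in RefSeq on the rat assembly GRCr8, all on the + strand, at chr4:30991443-30991692 for Cyp51, chr16:29746863-29747112 for Msmo1, chrX:155817110-155817359 for Nsdhl, chr1:208444184-208444433 for Dhcr7 and chr7:115543057-115543306 for Srebf2. Capitals mark CCAAT and GGGCGG, read on either strand (ATTGG and CCGCCC on the opposite strand), and in Srebf2 also ATCACCCCA.
Cyp51: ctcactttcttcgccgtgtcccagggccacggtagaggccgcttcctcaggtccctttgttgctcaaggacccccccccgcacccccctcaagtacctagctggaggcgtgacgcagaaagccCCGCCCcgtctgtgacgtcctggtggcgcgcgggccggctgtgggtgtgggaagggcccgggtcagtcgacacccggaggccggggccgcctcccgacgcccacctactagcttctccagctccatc
Msmo1: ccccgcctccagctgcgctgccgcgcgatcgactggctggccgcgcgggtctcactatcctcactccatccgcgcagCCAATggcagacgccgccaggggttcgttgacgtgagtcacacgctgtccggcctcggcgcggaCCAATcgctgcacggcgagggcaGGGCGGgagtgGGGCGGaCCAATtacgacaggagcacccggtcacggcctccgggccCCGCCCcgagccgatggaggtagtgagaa
Nsdhl: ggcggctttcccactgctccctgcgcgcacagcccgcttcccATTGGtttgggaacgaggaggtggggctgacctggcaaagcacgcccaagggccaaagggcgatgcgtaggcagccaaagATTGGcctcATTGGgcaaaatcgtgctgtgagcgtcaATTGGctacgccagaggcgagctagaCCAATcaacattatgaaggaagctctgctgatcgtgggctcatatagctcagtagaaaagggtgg
Dhcr7: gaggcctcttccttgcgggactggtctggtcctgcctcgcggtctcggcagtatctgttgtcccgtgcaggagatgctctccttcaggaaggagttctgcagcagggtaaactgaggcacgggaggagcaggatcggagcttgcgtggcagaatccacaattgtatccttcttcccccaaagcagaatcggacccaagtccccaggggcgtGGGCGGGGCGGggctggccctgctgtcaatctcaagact
Srebf2: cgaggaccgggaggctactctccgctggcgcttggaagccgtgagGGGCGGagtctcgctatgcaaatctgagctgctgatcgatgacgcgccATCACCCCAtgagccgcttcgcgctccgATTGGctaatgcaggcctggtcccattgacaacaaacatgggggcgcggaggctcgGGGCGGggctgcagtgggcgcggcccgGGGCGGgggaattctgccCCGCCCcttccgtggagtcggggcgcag

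CCAAT occurs 3 times in the Msmo1 window, 5 times in Nsdhl and 1 time in Srebf2, and 0 times in Cyp51 and Dhcr7. GGGCGG occurs 4 times in Srebf2, 3 times in Msmo1, 2 overlapping times in Dhcr7 and 1 time in Cyp51, and 0 times in Nsdhl. Of the 35 listed genes, 30 have such a window, Hmgcs1 and Srebf1 among them, and a gene with several start sites counts once. CCAAT was found in 22 of the 30, which is 73.3%, against 36.1% of 27457 genes and 36.2% of the 11970 genes that also have a level here. GGGCGG was found in 24 of the 30, or 80%, against 33.5% of all genes and 48.0% of those with a level. By role, CCAAT was present in 6 of 7 early and 8 of 10 late genes. It was also in 4 of 5 regulators, 2 of 3 uptake, transport and storage genes and 2 of 5 turnover and export genes. In the same order of roles, GGGCGG was present in 5 of 7, 9 of 10, 4 of 5, 3 of 3 and 3 of 5.

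The sterol regulatory element searched as TCACNCCAC, where N is any base, was found in 0 of the 30 windows and in 1.09% of all genes. ATCACCCCA was added after the Srebf2 window had been read, so its count is only a description: it occurs in Srebf2 alone of the 30 and in 0.226% of all genes. These are matches of letters in 250 bases. No binding was measured.

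**Figure D3:**
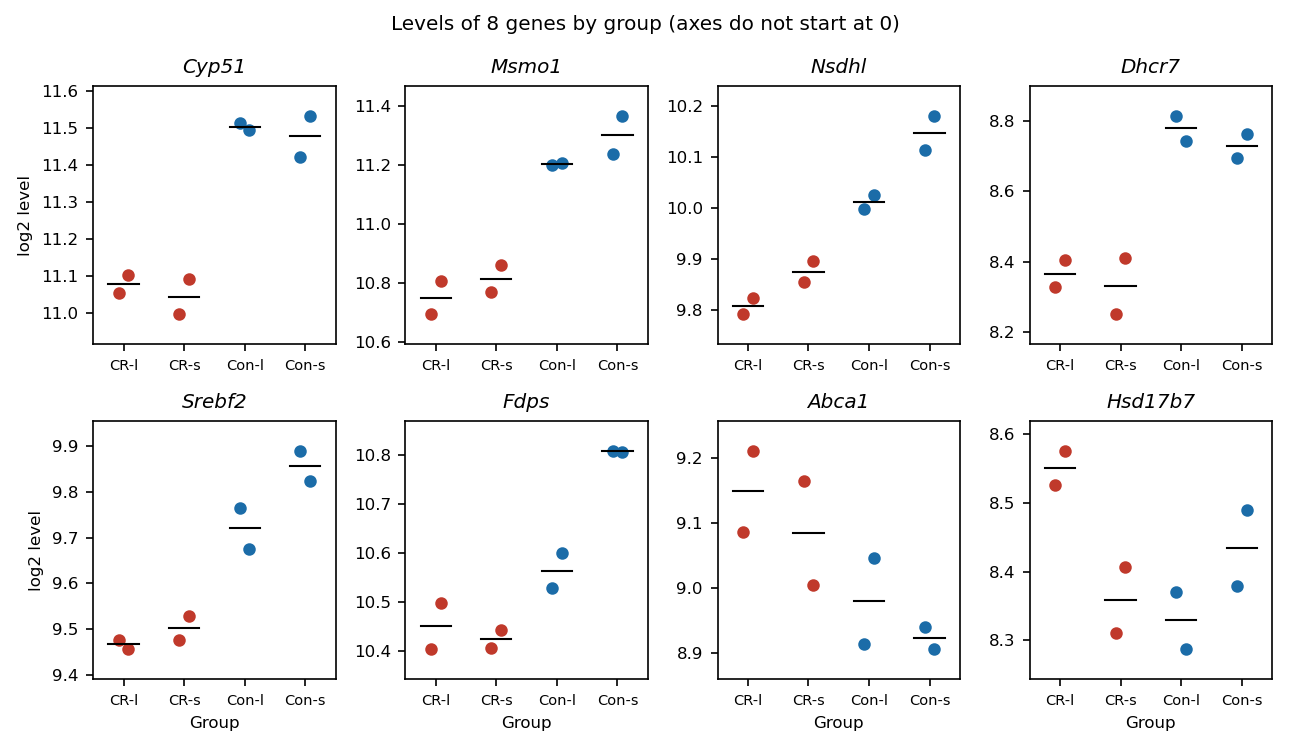
Log2 level of 8 genes on each array (points, 2 per group, red for CR and blue for Con) with the group mean (bar), on axes that do not start at 0. Cyp51, Msmo1, Dhcr7 and Srebf2 separate by diet, Fdps is highest in Con-s, Abca1 overlaps between diets, and Hsd17b7 is highest in CR-l.

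All 4 measured genes of uptake, intracellular transport and storage had lower CR means, and 0 passed. Soat1, the enzyme that esterifies cholesterol for storage, had log2 levels of 7.02 and 7.02 in CR-l and 7.22 and 6.98 in CR-s, against 7.42 and 7.24 in Con-l and 7.32 and 7.31 in Con-s. Its CR and Con arrays did not overlap, with a difference of -0.26 (SE 0.07, limma, adjusted p = 0.129). Stard4, a carrier of sterol between membranes, had 7.14 and 6.99 in CR-l and 7.16 and 6.99 in CR-s, against 7.23 and 7.16 in Con-l and 7.16 and 7.35 in Con-s, a difference of -0.16 (adjusted p = 0.332).

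The Niemann-Pick proteins, which pass cholesterol out of the lysosome, differed by less. Npc1 had log2 levels of 9.63 and 9.60 in CR-l and 9.56 and 9.57 in CR-s, against 9.76 and 9.64 in Con-l and 9.62 and 9.71 in Con-s (difference -0.09). Npc2 had 9.89 and 10.11 in CR-l and 10.01 and 9.99 in CR-s, against 10.16 and 9.98 in Con-l and 10.11 and 10.14 in Con-s (difference -0.10). Both overlapped between diets.

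Turnover and export genes had a median difference of -0.04, and 0 of the 6 passed. Abca1, the main exporter of cholesterol to apolipoproteins, had the highest CR-minus-Con difference of the 33, 0.16 (95% interval 0.03 to 0.30, limma, adjusted p = 0.239). Its log2 levels were 9.09 and 9.21 in CR-l and 9.16 and 9.004 in CR-s, against 8.91 and 9.05 in Con-l and 8.94 and 8.91 in Con-s. The diets overlapped through CR-s replicate B and Con-l replicate B. Abcg1, its partner exporter, had 9.36 and 9.44 in CR-l and 9.40 and 9.34 in CR-s, against 9.41 and 9.48 in Con-l and 9.40 and 9.38 in Con-s, a difference of -0.03 (95% interval -0.13 to 0.07).

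Apoe, the apolipoprotein that carries brain cholesterol, had log2 levels of 12.18 and 12.20 in CR-l and 12.25 and 12.19 in CR-s, against 12.23 and 12.31 in Con-l and 12.24 and 12.21 in Con-s, a difference of -0.05 (95% interval -0.15 to 0.05). Cyp46a1, the neuronal 24-hydroxylase, had 10.13 and 9.81 in CR-l and 9.95 and 9.80 in CR-s, against 10.02 and 10.06 in Con-l and 9.83 and 10.14 in Con-s. Its replicates in CR-l and in Con-s lay further apart than the group means, which ran from 9.88 to 10.04. Its 95% interval of -0.31 to 0.14 was wide.

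Neither of the 2 liver X receptors passed. Nr1h2 had log2 levels of 7.75 and 7.79 in CR-l and 7.91 and 7.86 in CR-s, against 7.94 and 7.92 in Con-l and 7.99 and 7.97 in Con-s, lower in every CR array by -0.13 on average (limma, adjusted p = 0.182). Nr1h3 had 6.23 and 6.23 in CR-l and 6.07 and 6.16 in CR-s, against 6.13 and 6.23 in Con-l and 6.16 and 6.18 in Con-s, an averaged difference of 0.00. The difference between the roles was not tested. As medians over genes, it was -0.24 for late steps, -0.17 for early steps, -0.13 for uptake, transport and storage, -0.11 for the regulators and -0.04 for turnover and export.

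The diet difference was then taken within each treatment, in comparisons that share no arrays. CR-l against Con-l gave 29 of 33 genes lower with a median of -0.13, and CR-s against Con-s gave 31 of 33 lower with a median of -0.18. In both, 0 genes passed in limma's fit, against 0.0207% of all genes under leptin and 0% under saline. At an unadjusted p under 0.05, 10 genes were lower under leptin (7.27% of all genes) and 15 under saline (5.1% of all genes), and 1 gene, Hsd17b7, was higher under leptin (6.92% of all genes). With 2 arrays on each side, the smallest adjusted p of a member was 0.079 under leptin and 0.204 under saline.

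Of the 33 genes, 29 were lower and 2, Abca1 and Insig2, were higher in both comparisons, and 2 differed in sign. Several late genes had close values under both treatments. Cyp51 differed by -0.43 under leptin and -0.43 under saline, Msmo1 by -0.45 and -0.49, and Dhcr7 by -0.41 and -0.40 in that order. The early genes were further from 0 under saline, with a median of -0.13 under leptin and -0.22 under saline. Fdps differed by -0.11 under leptin and -0.38 under saline, Fdft1 by -0.14 and -0.32, and Idi1 by -0.13 and -0.37 in the same order. Hsd17b7 differed by 0.22 under leptin and -0.08 under saline. The diet by leptin interaction, which tests these differences, passed for 0 of the 33 genes, against 0% of all genes, with a smallest adjusted p of 0.898. At an unadjusted p under 0.05, it was above 0 for Fdps (0.27) and Hsd17b7 (0.30), each with an adjusted p of 0.898, against 2.42% of all genes.

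**Figure D4:**
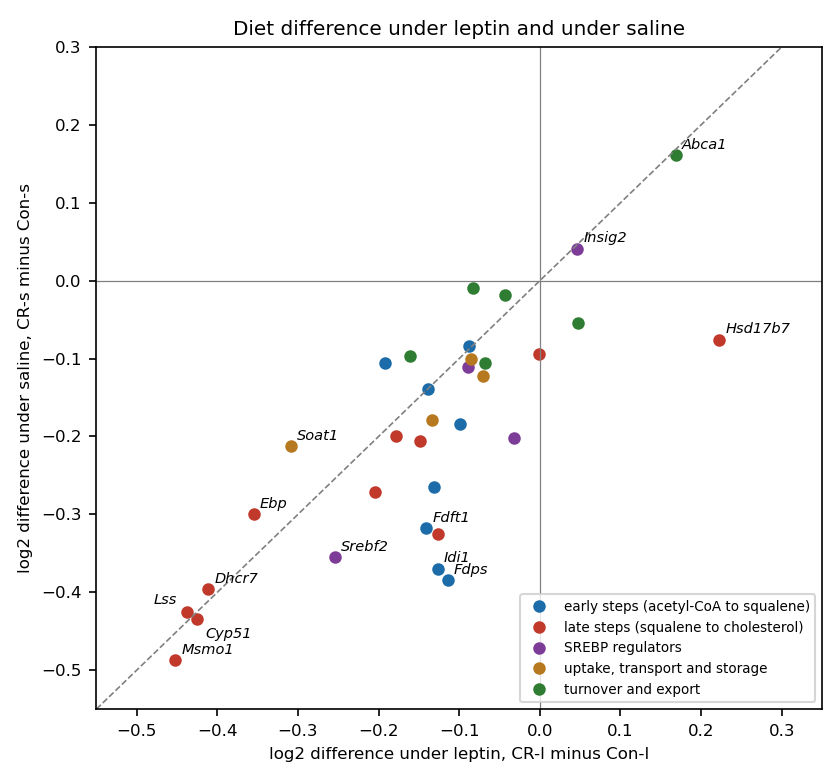
Log2 diet difference of each of the 33 genes under leptin (horizontal axis, CR-l minus Con-l) and under saline (vertical axis, CR-s minus Con-s), coloured by role, with a dashed line of equality. Late genes such as Msmo1, Cyp51 and Dhcr7 lie near the line at its lower end, Fdps, Idi1 and Fdft1 lie below it, and Hsd17b7 is the 1 labelled gene to the right of 0 and below it.

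Leptin itself was followed by small differences. For CR-l against CR-s, 14 genes were lower and 19 higher, with a median of 0.02, and 0 passed, against 0% of all genes. Hsd17b7 was the 1 gene with an unadjusted p under 0.05 in limma's fit, higher by 0.19 (adjusted p = 0.808), where 3.05% of all genes were higher at that level. Its CR-l levels of 8.53 and 8.58 lay above its CR-s levels of 8.31 and 8.41.

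In offspring of normally fed mothers, Con-l against Con-s, 20 genes were lower and 13 higher, with a median of -0.04, and 0 passed, against 0% of all genes. Fdps had log2 levels of 10.53 and 10.60 in Con-l, against 10.81 and 10.81 in Con-s, a difference of -0.24 (unadjusted p = 0.00535). Fdft1 had 11.14 and 11.17 in Con-l, against 11.37 and 11.36 in Con-s, a difference of -0.21 (unadjusted p = 0.0117). The groups did not overlap in either gene, but both had an adjusted p of 0.997 in limma's fit, and 2.01% of all genes were lower at an unadjusted p under 0.05. Averaged over the diets, leptin gave 0 genes past the threshold (0% of all genes), and Fdps, Fdft1 and Nsdhl were lower at an unadjusted p under 0.05 (2.36% of all genes), by -0.11, -0.12 and -0.10. Of the late genes that fell with restriction, Cyp51 differed with leptin by 0.03 in CR and 0.03 in Con, Msmo1 by -0.07 in CR and -0.10 in Con, Nsdhl by -0.07 in CR and -0.13 in Con, and Dhcr7 by 0.04 in CR and 0.05 in Con.

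**Figure D5:**
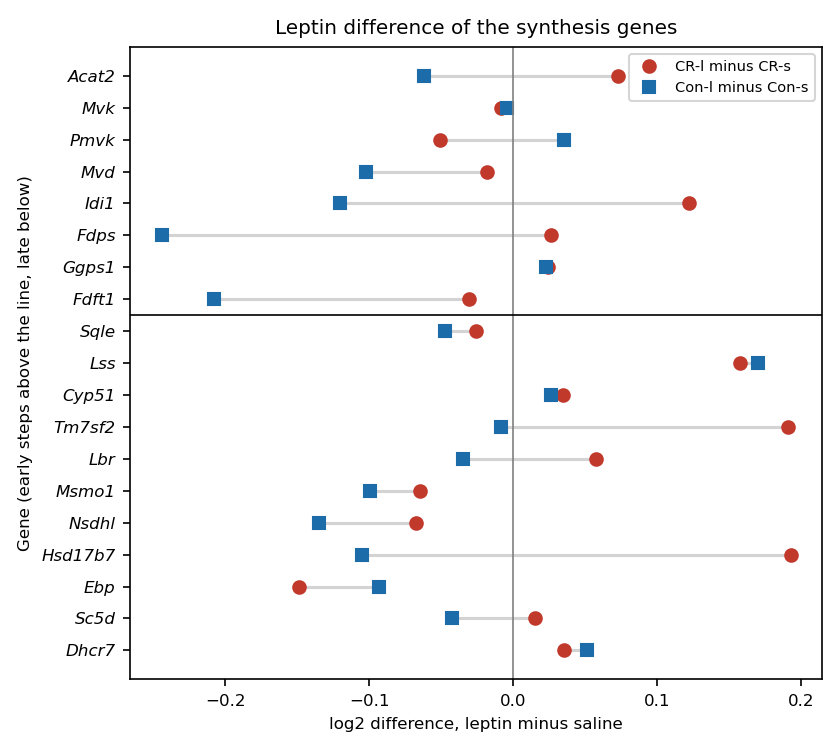
Log2 leptin difference of the 19 synthesis genes in restricted offspring (red circles, CR-l minus CR-s) and in control offspring (blue squares, Con-l minus Con-s), with early steps above the black line and late steps below it. Fdps and Fdft1 have the lowest control values, and Hsd17b7 and Tm7sf2 the highest restricted ones.

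Other genes tied to the pathway were counted over 3 further lists, to be read against the 0.882% of all genes called lower, the 0.324% called higher and the 6.67% with all CR arrays below all Con arrays. Of 22 measured fatty acid and lipid synthesis genes known as SREBP targets, 18 were lower in CR and 3 fell, the desaturases Fads1 (-0.44, limma, adjusted p = 0.0223), Scd (-0.72, limma, adjusted p = 0.0325) and Scd2 (-0.26, limma, adjusted p = 0.0383). Their median difference was -0.14, and 12 of the 22 had all CR arrays below all Con arrays. Of 15 measured genes on the isoprenoid branches that leave the route at farnesyl diphosphate, 5 were lower and 10 higher, with a median of 0.05, and 0 passed. Of 33 measured other sterol genes, 20 were lower and 13 higher with a median of -0.02. The lipid transporter Abca2, abundant in oligodendrocytes, fell by 0.28 (limma, adjusted p = 0.0336), and Acat1, the mitochondrial thiolase of ketone body use, rose by 0.57 (limma, adjusted p = 0.0233).

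Marker genes of several cell types were counted in the same contrast, in which 0.882% of all genes were called lower and 0.324% higher. Of 21 listed markers of mature oligodendrocytes and myelin, 16 were measured, all 16 were lower in CR and 6 fell, and their summed intensity was 47470 to 51835 in CR and 56998 to 60731 in Con. The 19 synthesis genes summed to 15521 to 16454 in CR and 18906 to 20390 in Con, so both sums separated the diets without overlap. This was not particular to them. The red blood cell, meningeal, vessel and choroid plexus sums given next were also lower in CR without overlap, and the neuron sum was higher without overlap. A sum of intensities gives most weight to bright genes. Oligodendrocyte precursor markers (9 measured of 10) were lower in 6 cases with 0 called, at 7218 to 8036 in CR and 7908 to 8267 in Con. Astrocyte markers (12 of 13) were lower in 6 cases with 1 called, at 26349 to 27721 in CR and 27597 to 28795 in Con. Neuron markers (13 of 13) were lower in 3 cases with 0 called, at 38781 to 39570 in CR and 37179 to 38694 in Con.

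Microglial markers (9 of 10) were lower in 4 cases with 0 called, again beside 0.882% of all genes called lower, at 4049 to 4424 in CR and 4053 to 4394 in Con. Red blood cell markers (6 of 9) were all lower with 5 called, at 1358 to 2171 in CR and 3846 to 5821 in Con. Meningeal markers (13 of 15) were all lower with 4 called, at 2606 to 3052 in CR and 3584 to 4867 in Con. Vessel markers (14 of 14) were lower in 11 cases with 2 called, at 6435 to 6596 in CR and 6965 to 7289 in Con, and choroid plexus markers (7 of 8) in 3 cases with 1 called, at 537 to 547 in CR and 570 to 625 in Con. The lowest log2 level of a marker was 4.66, and without a detection call a level does not show that a gene was expressed. The part of these cell types in the cholesterol result was not tested, and in tissue RNA fewer cells of a type and less RNA per cell cannot be told apart.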

How the data were processed

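RNA from 8 hypothalamus samples was hybridised to 1 array each. The authors deposited intensities per probe set, made with RMA in Affymetrix Expression Console per the submitters' processing notes; the sources used here give no version. These deposited intensities are on a linear scale and were log2-transformed without further normalization. Of 29215 probe sets, 15633 are in the array annotation, 15310 with 1 symbol and 323 with several, which were left out. Symbols came from the Entrez number (15279), an accession (6) or the annotation itself (25). The brightest probe set was kept for 527 genes with several, giving 14506 genes. The small number of arrays limits the precision.

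One limma model (3.58.1, R 4.3.3) held 4 group means, with 4 residual and 3.21 prior degrees of freedom, and gave all 7 comparisons. Tests were two-sided, and p-values were adjusted by Benjamini-Hochberg over all genes with a threshold of 0.05. The fit was checked on simulated data, and 15 alternatives were run. The genes, role groups, marker lists and the rule for named genes were chosen with earlier results of these data known. By that rule, values on every array were given for genes that passed and for regulators, transport and export genes, other synthesis genes as ranges, and genes with an unadjusted p under 0.05 in other comparisons by name. The hypothalamic peptide genes were chosen after the data had been seen. No array column lacked a sample. Promoters and their positions are RefSeq's on GRCr8; no genome build is used for the array.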

Additional observations from a re-analysis of the deposited data

Results flagged for a closer look

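In Hsd17b7 and Idi1, leptin and saline arrays separated in opposite directions in the 2 diets. Both genes were picked by that separation, which is common with 2 arrays against 2. Of 14506 genes, 2970 were higher and 2350 lower without overlap in CR-l against CR-s. In Con-l against Con-s, 2355 were higher and 2395 lower without overlap. The share of all genes that separated in opposite directions was not counted. Hsd17b7 was above both CR-s arrays on both CR-l arrays and below both Con-s arrays on both Con-l arrays, and the difference between the leptin effects was 0.30 on the log2 scale (limma interaction, unadjusted p = 0.0194, adjusted p = 0.898). Idi1 did the same with a difference of 0.24 (unadjusted p = 0.0645, adjusted p = 0.898). Neither interaction passed the threshold over all genes.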

How the results depend on the processing

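Calls depended on how the genes were adjusted and how the spread was estimated. Over the 15 alternatives, 32 of the 33 genes kept the sign of their averaged diet difference. Nr1h3, at 0.00, changed sign in 3 that left out an array. The trend and robust settings, the upper 60% of genes, all probe sets tested together and the replicate block cannot change a log2 difference. Taking the mean of probe sets can change only that of Insig1 among the 33 genes. Against 5 genes called in the averaged diet comparison, limma's trend and robust settings called 14, the upper 60% of genes by mean level 12, all probe sets tested together 0, and the fits that left out 1 array 0 in each case (range 0 to 0). Over all 14506 genes, trend and robust settings called 744 in the averaged diet comparison, against 175 in the main fit. For the diet difference under saline and under leptin, where 0 of the 33 were called, trend and robust settings called 7 and 6, and the upper 60% of genes 2 and 4. Over all genes, trend and robust settings called 66 under saline and 469 under leptin, against 0 and 3 in the main fit. The replicate block called 3 (Cyp51, Dhcr7 and Msmo1). No pairing by replicate letter was seen, as the A minus B differences of 2 groups correlated at -0.06 to 0.11. Weak correlations cannot show that samples of the same letter are unrelated. The mean of probe sets called 6, and cyclic loess and quantile normalization 4 each. Fewer genes were tested in the upper 60% setting and fewer arrays in the fits that left one out; otherwise the cause was not tested. No leptin or interaction alternative called a member. With 2 arrays per group, small differences within a treatment were not resolved.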
